A study of Homo sapiens with 17 samples.

Results

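Transcribed pseudogenes were taken as the genes whose annotated type in the deposited table of the cell lines is transcribed unprocessed pseudogene, transcribed processed pseudogene, transcribed unitary pseudogene or polymorphic pseudogene. They were 220 of 14538 genes. The unprocessed type held 141, the processed type 47, the unitary type 22 and the polymorphic type 10. RNA was measured by stranded sequencing of ribosome-depleted total RNA in HEK293T cells, an established human embryonic kidney line. The untreated groups were parental cells (3 libraries) and INTS1-AID cells (3 libraries), in which both INTS1 alleles carry the miniAID degron. INTS1-AID cells were also sampled in a 4 h series, without auxin (2 libraries) and with 500 µM auxin (3 libraries), and in a 12 h series, without auxin (3 libraries) and with 500 µM auxin (3 libraries). Since no parental library with auxin was analysed, an effect of auxin itself and one of INTS1 loss cannot be told apart. Whether replicates came from separate cultures is not stated in the labels, and the spread behind the p-values may be technical. In bulk RNA, fewer cells with a transcript and less transcript per cell cannot be told apart.

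A pseudogene is a copy or remnant of a gene that is thought to have lost its original protein product. Processed pseudogenes arise when an mRNA is reverse transcribed and inserted elsewhere, and lack introns and the promoter of their parent. Unprocessed pseudogenes arise from duplicated genomic DNA and often keep introns, and unitary pseudogenes are genes that were inactivated in place. Polymorphic pseudogenes are coding in some individuals or alleles. INTS1 belongs to Integrator, which cuts nascent transcripts of RNA polymerase II, forms the ends of small nuclear RNA and attenuates many genes early in transcription. Auxin directs miniAID-tagged protein to degradation.

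The polymorphic label went against the reference annotation. Of its 10 members, 9 are protein coding in GENCODE v29, among them LDHB and MDH1 (dehydrogenases of lactate and malate), AMD1 (a decarboxylase of polyamine synthesis), VDR (the vitamin D receptor), VEGFA (an angiogenic growth factor) and AQP4 (a water channel). The remaining member, GPX1, encodes a selenium-containing glutathione peroxidase. They are called the polymorphic type below only after the files' label. Of all 220 members, 208 had the same type in GENCODE v29.

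The sequences around the stop codon show what some, but not all, of the polymorphic members share beyond the label. Each line runs from 9 bases before the stop codon to 15 bases after it, in the longest coding transcript of GENCODE v29 on GRCh38, with the stop codon in capitals together with CTAG where these letters follow it.
LDHB: aaagacctgTGACTAGtgagctctagg
MDH1: tcctctgccTGACTAGacaatgatgtt
AQP4: tcttcagtaTGACTAGaagatcgcact
OPRL1: cggcccgcaTGACTAGgcgtggacctg
VDR: gagatctccTGACTAGgacagcctgtg
AMD1: cagcagagtTGAttaagaaaaatgaag
ACP2: gaccacgccTGAcaaccactcagcccc
SACM1L: aagatagacTGAatttgtatttgtgga
The stop codons of LDHB and VDR lie on the minus strand at chr12:21635542-21635544 and chr12:47844746-47844748, and that of MDH1 on the plus strand at chr2:63606985-63606987. VEGFA, whose line is not printed, also ends in TGA without CTAG. TGA was the stop codon in 9 of the 10 members and in 49.8% of 12567 protein-coding genes of the table. TGACTAG stood at the stop codon of 5 of the 10 members and of 6 of the 12567 other protein-coding genes, or 0.0477%. As background, this context is known from genes with stop codon readthrough, in which ribosomes extend some protein molecules past the stop codon. These counts describe the annotation and carry no test.

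GPX1 differs from the others, since its stop codon is TAG and a TGA lies in frame at codon 49 of its reading frame. In the line below the in-frame TGA is in capitals, with 9 bases before it and 15 after it.
GPX1: gcgtccctcTGAggcaccacggtccgg
In selenoproteins such a codon is read as selenocysteine. The codon lies at chr3:49358132-49358134 on the minus strand.

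The processed members that rose at both times included 2 copies of keratin genes, and their sequences show how far a read can tell copy from parent. KRT18P59 and KRT18 matched at 85.3% of 1280 aligned bases, and KRT8P12 and KRT8 at 90.6% of 1388. A stretch of 60 coding bases from the middle of the longest gap-free block follows for KRT18P59 and KRT18, with differing bases in capitals.
KRT18P59: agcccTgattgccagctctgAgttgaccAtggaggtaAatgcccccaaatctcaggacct
KRT18: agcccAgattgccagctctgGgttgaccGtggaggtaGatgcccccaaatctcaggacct
The stretch of KRT18P59 lies at chr11:125114244-125114303 on the plus strand. A share of 0.213% of the 50-base stretches of KRT18P59 transcripts occurs in transcripts of another gene, as does 1.45% of those of KRT8P12. GTF2IP1 is the opposite case. It matched GTF2I at 99.8% of 2054 aligned bases, and 96.5% of its 50-base stretches occur elsewhere. The median share of such stretches was 25% in the unprocessed type, 4.03% in the processed, 0.153% in the unitary and 0.0584% in the polymorphic type. At least 10% was shared by 121 of the 220 members, whose values are therefore uncertain where the authors' counting could split reads between copies. In addition, 35 members overlap a measured gene on the other strand, and 3 one on the same strand. Since it is not stated whether counting used the strand, reads of such pairs may not be told apart.

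The untreated libraries held 26294938 to 39321998 recovered reads in genes, and members took 0.296% to 0.309% of them. The polymorphic type alone took 58.9% to 63.6% of the reads in members. All 8 marker genes of HEK293T cells were in the table. Their mean normalized counts in parental and INTS1-AID cells were 47.5 and 19.5 for PAX2, 558 and 172 for EYA1, and 8.16 and 6.93 for LHX1. They were 1480 and 1992 for NEFL, 669 and 821 for NEFM, and 1188 and 949 for INA. VIM had 11966 and 13891, and NES had 404 and 326. Also in the table were 1 of 3 blood genes (HBB, mean normalized count of 11.3 in parental cells) and 1 of 3 gut genes (CDX2, 969), while no fibroblast or liver marker was. For the auxin series only comparison values were used, so their depth is unknown. INTS1 mRNA had a normalized count of 5530 ± 1708 in parental and 3956 ± 215 in INTS1-AID cells (SD, n = 3 each), which does not show its protein.

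The levels of members spanned 0 to 34571 normalized counts, as the mean over the 6 untreated libraries, with a median of 51.5. The median was 1457 in the polymorphic, 72.02 in the unprocessed, 49.1 in the unitary and 20.1 in the processed type. Per kilobase of transcript the medians were 680 normalized counts in the polymorphic, 51.7 in the unprocessed, 31.0 in the unitary and 18.95 in the processed type, which is the same order. Of the 10 members with the highest counts, 7 were of the polymorphic type, and the others were the zinc finger genes ZNF271P (unitary) and ZNF37BP (processed) and AFG3L1P (unitary), a remnant of a mitochondrial protease gene.

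LDHB was the most abundant member, with normalized counts of 31278, 34034 and 30703 in the parental libraries and 36191, 36876 and 38345 in the INTS1-AID libraries. The INTS1-AID libraries all lay above the parental ones, but the difference did not pass the test (log2 change 0.22, limma adjusted p = 0.135). VDR had 301, 261 and 331 normalized counts in parental and 306, 336 and 260 in INTS1-AID libraries, and the groups overlapped. VEGFA had 1122, 1170 and 1414 in parental and 1296, 1314 and 1349 in INTS1-AID libraries, which also overlapped.

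**Figure D1:**
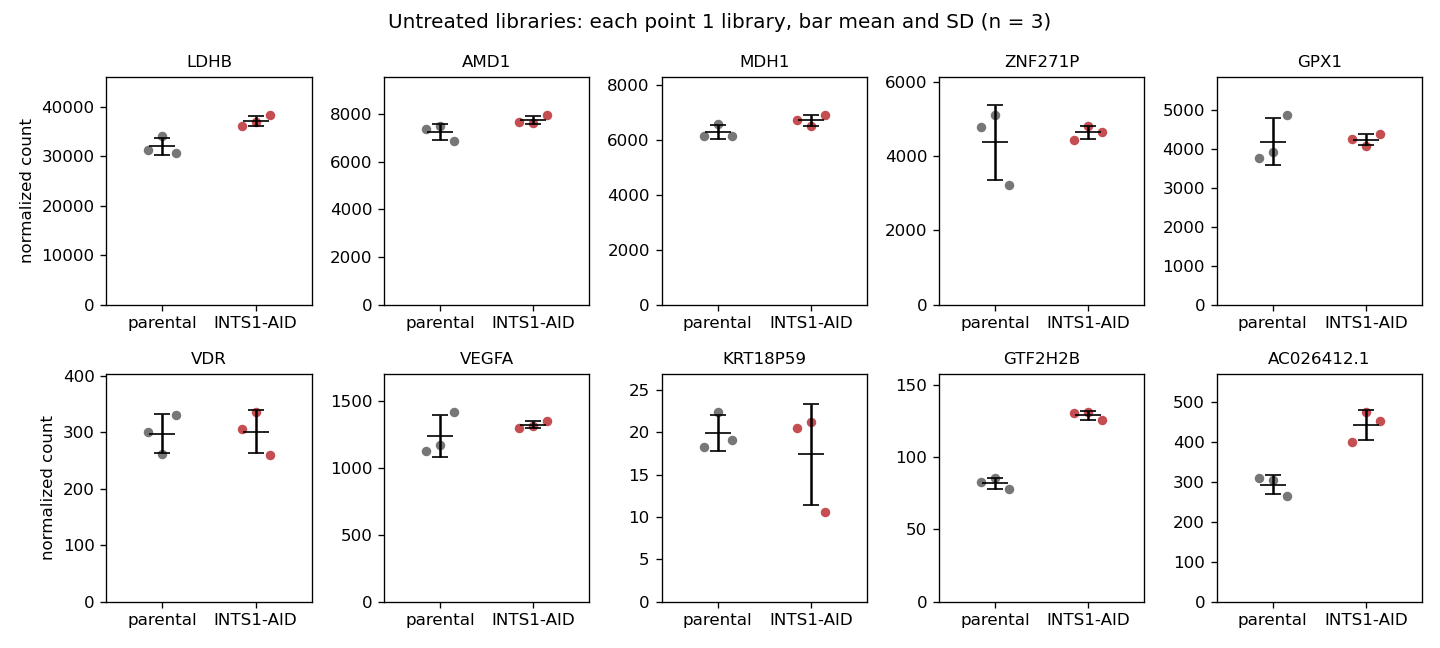
Normalized counts (vertical axis, from 0) of 10 members in the untreated parental and INTS1-AID libraries. Each point is 1 library, and the bars give the mean and the SD of 3 libraries. GTF2H2B and AC026412.1 are the members with a limma adjusted p under 0.05.

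The comparison of untreated INTS1-AID with parental cells asks what the tagged line shows before any auxin. Among the 169 members whose mean normalized count reached 10, 2 were higher and 0 lower in INTS1-AID cells at a limma FDR of 0.05, or 1.18%. Of all 13293 genes tested, 2.22% were called, 1.85% higher and 0.369% lower. The unadjusted p was under 0.05 for 33 members, and the matching share of all genes was not computed. Calls by edgeR were 2 members and 307 of all genes, and by DESeq2 7 members and 824 of all genes. The authors' deposited table held 6 members at an adjusted p under 0.05, against 5.58% of its 14435 genes with an adjusted p, a larger set than that tested with limma. AC026412.1, GTF2H2B, FBXL21P and PRSS30P were higher there. TMEM191A (log2 change -0.87) and RP9P (-0.45) were lower (adjusted p = 0.0255 and 0.0449, DESeq2). GTF2H2B, a copy of a transcription factor IIH subunit gene, had normalized counts of 82.8, 85.3 and 77.6 in parental libraries and 130.2, 131 and 125 in INTS1-AID libraries. The groups did not overlap (log2 change 0.65, limma adjusted p = 0.0417), but 95.1% of its 50-base stretches occur in other genes. AC026412.1 had 309, 305 and 266 in parental libraries and 401, 475 and 453 in INTS1-AID libraries, which did not overlap either (log2 change 0.59, limma adjusted p = 0.0398). Both lie on chromosome 5, at chr5:70415443-70448015 and chr5:1598920-1634005. All 8 members of chromosome 5 had log2 changes above 0 with a median of 0.47, close to the 0.52 of all 592 tested genes of that chromosome, and 0 of the 161 members tested elsewhere were called, against 86 of 12701 genes there and 209 of 592 on chromosome 5. Groups that did not overlap were found for 46 of the 169 members (18 higher and 28 lower), or 27.2%, against 30.7% of all genes (16% higher and 14.7% lower). The count of 2 was 0 when any 1 of the other 5 libraries was left out and 22 (16 higher and 6 lower) without parental replicate 3. Over all genes, 2432 were called without that library and 1 to 271 without 1 of the others. Its recovered reads stood apart from those of the other parental libraries, with a chi-square per gene of 47.7 and 67.1, against 2.93 to 5.46 for the other pairs within a group.

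The 4 h series asks how RNA levels respond to a short exposure to auxin. In the authors' deposited table, 29 of 220 members were higher and 6 lower (DESeq2 adjusted p under 0.05), or 15.9% called, against 38.4% of all 14479 genes tested. The median log2 change of members was 0.15, against 0.0048 for all genes, in the authors' deposited table. Of all genes of the authors' deposited table, 19.2% were higher and 19.2% lower, whereas 13.2% of members were higher and 2.73% lower. Calls depend on abundance, so shares are also given by mean count. At mean counts from 10 to under 100, 13.6% of members were higher and 2.27% lower at 4 h, against 19.8% and 3.09% of all genes, in the authors' deposited table. Higher calls outnumbered lower ones among all genes of that abundance as well. The median log2 change in that range was 0.18 for members and 0.24 for all genes, and under 10 counts it was 0.17 and 0.48, by the authors' deposited table. From 100 to under 1000 counts, 19.7% of members were higher and 6.06% lower, against 22.3% and 19.4% of all genes of the authors' deposited table. At 1000 counts or more, 4 of 7 members were called, all higher, or 57.1%, against 49.7% of all genes of the authors' deposited table. These are counts, and the difference between members and other genes was not tested. Long noncoding RNA genes were higher in 15.7% and lower in 1.40% of 1353 cases in the authors' deposited table.

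**Figure D2:**
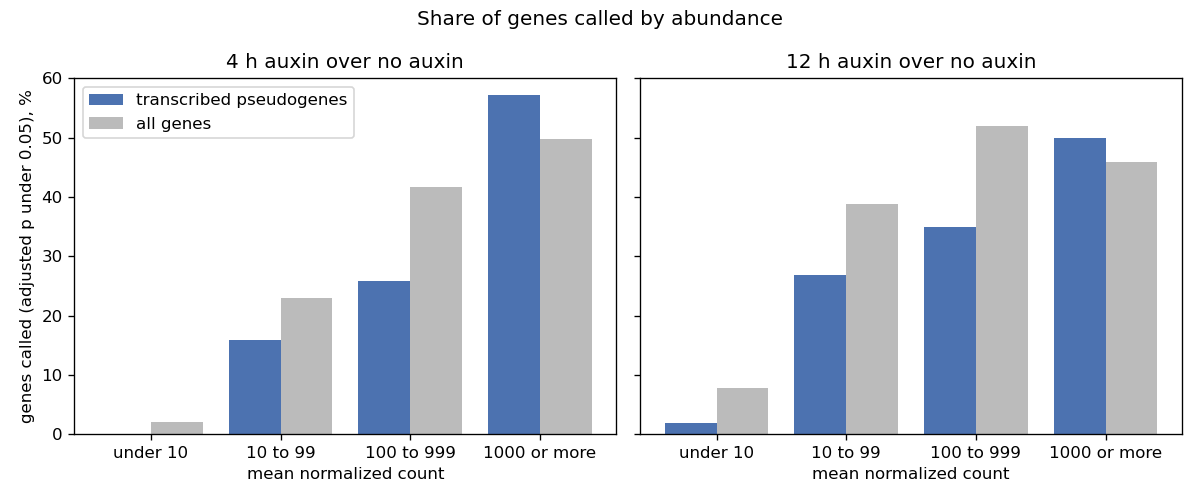
Percentage of genes with an adjusted p under 0.05 (vertical axis) by mean normalized count, for members and all genes, at 4 h and 12 h. Below 1000 counts the bar of the members is the lower one in each range at both times, and at 1000 or more, with 7 members at 4 h and 6 at 12 h, it is the higher one.

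By type, the authors' deposited table at 4 h held 13 higher and 4 lower of 141 unprocessed members (median log2 change 0.03). The authors' deposited table held 7 higher and 0 lower of 47 processed members (median 0.39). Of the 22 unitary members, 5 were higher and 1 lower (median 0.53), and of the 10 polymorphic members 4 were higher and 1 lower (median 0.23), by the authors' deposited table. The types also differ in abundance and shared sequence, as given above, and the part of these in the counts was not tested.

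**Figure D3:**
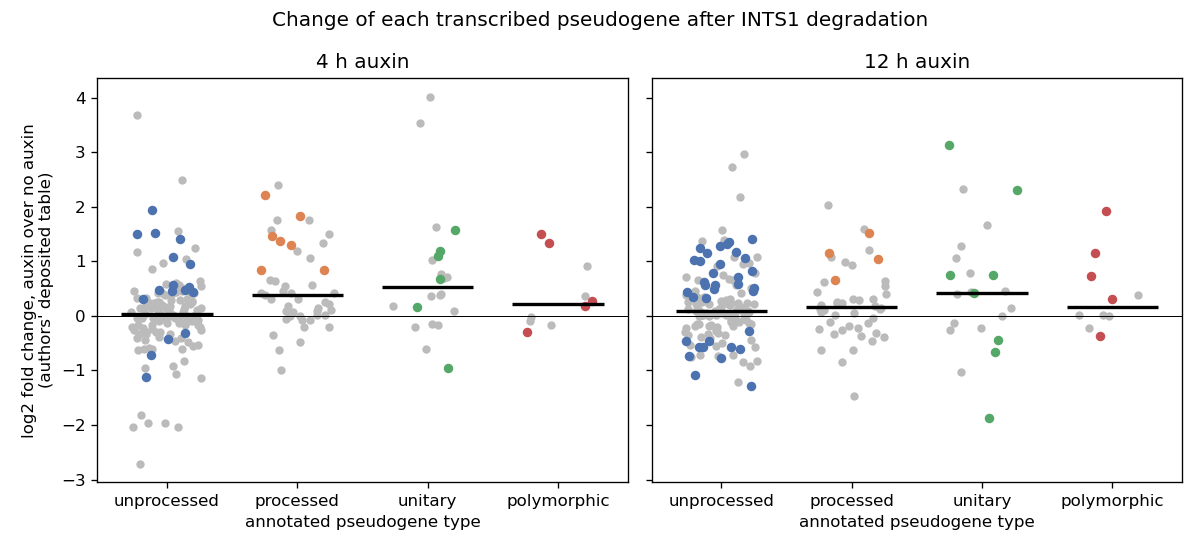
Log2 fold change of each member (vertical axis) by annotated type at 4 h and 12 h of auxin, from the authors' deposited table. Coloured points have an adjusted p under 0.05, grey points do not, and black lines are the medians of all members tested. The processed type has no called member below 0 at either time.

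At 12 h the authors' deposited table held 37 higher and 15 lower of 217 members, or 24.0% called, against 44.2% of all 14485 genes tested (21.9% higher and 22.3% lower). The direction of the 12 h column was taken from its correlation with the 4 h column across genes (Pearson's r = 0.85, n = 10700), and a deposited log2 expression column does not settle it. For 4 h that column matched the denominator of the fold change, with the 2 libraries without auxin there, within a median of 0.000476 on the log2 scale. For 12 h, with 3 libraries in each group, it matched neither side closely, with median errors of 0.0784 for the numerator and 0.155 for the denominator. Were the 12 h fold change the inverse, the counts of higher and lower members and the sign of each 12 h value would turn. The 12 h minus 4 h differences given below rest on the same direction and would change as well. In the authors' deposited table, 24 of 139 unprocessed members were higher and 11 lower. The authors' deposited table held 4 higher and 0 lower of 46 processed members, and 5 higher and 3 lower of 22 unitary members. The polymorphic type again had 4 higher and 1 lower of 10 by the authors' deposited table. Of the 29 members higher at 4 h, 16 were also higher at 12 h, which is 55.2% of the former and 43.2% of the latter list. Of the 6 lower at 4 h, 1 was also lower at 12 h. The matching overlaps over all genes were not computed, so these shares cannot be called high or low. With a log2 change of at least 1 as well, the authors' deposited table held 15 higher members and 1 lower at 4 h, against 5.53% of all genes (5.32% higher and 0.207% lower). By the same rule it held 17 higher and 3 lower at 12 h, against 10.8% of all genes (7.52% higher and 3.27% lower).

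The polymorphic members with TGACTAG included 1 that rose, VDR, and 4 that did not pass the test at either time. VDR rose by 1.51 on the log2 scale at 4 h (adjusted p = 1.30e-28, DESeq2) and by 1.92 at 12 h (adjusted p = 2.01e-63, DESeq2) in the authors' deposited table. LDHB, with the same TGACTAG, had log2 changes of -0.02 and 0.02 in the authors' deposited table (adjusted p = 0.711 and 0.908, DESeq2), and MDH1 of -0.08 and -0.22 (adjusted p = 0.127 and 0.0669, DESeq2). VEGFA rose in the authors' deposited table by 1.33 at 4 h and by 1.16 at 12 h (adjusted p = 4.64e-93 and 1.40e-36, DESeq2). AMD1 rose by 0.18 and 0.32 in the authors' deposited table (adjusted p = 9.02e-05 and 0.0141, DESeq2). ACP2, a lysosomal acid phosphatase gene, fell by 0.30 at 4 h in the authors' deposited table (adjusted p = 0.00125, DESeq2). SACM1L, which encodes a phosphoinositide phosphatase, fell by 0.37 at 12 h in the authors' deposited table (adjusted p = 0.0215, DESeq2).

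GPX1 had normalized counts of 3761, 3930 and 4878 in parental and 4275, 4091 and 4380 in INTS1-AID libraries without auxin, and the groups overlapped. In the authors' deposited table it rose by 0.27 at 4 h and by 0.73 at 12 h (adjusted p = 2.92e-06 and 1.34e-11, DESeq2). The 12 h change exceeded the 4 h change by 0.46 ± 0.12 (SE; Wald z test on values of the authors' deposited table, Benjamini-Hochberg adjusted p = 0.00147).

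Of the processed members, KRT18P59 had the largest rise at 4 h among members with a mean count of at least 20. Its untreated normalized counts were 18.3, 22.4 and 19.1 in parental and 20.5, 21.2 and 10.5 in INTS1-AID libraries, so the groups overlapped at a low level. In the authors' deposited table it rose by 2.23 at 4 h and 1.16 at 12 h (adjusted p = 4.84e-10 and 0.000928, DESeq2). Its parent KRT18, an intermediate filament gene of simple epithelia, rose by 0.32 at both times in the authors' deposited table (adjusted p = 5.75e-07 and 0.0345, DESeq2). KRT8P12 rose by 1.31 and 1.05 in the authors' deposited table (adjusted p = 3.99e-06 and 1.52e-05, DESeq2), and KRT8, the partner of KRT18, by 0.44 and 0.66 (adjusted p = 0.00215 and 3.69e-05, DESeq2). KRT8P12 overlaps KPNA4 on the opposite strand, which had log2 changes of -0.04 and 0.35 in the authors' deposited table. SDAD1P1 rose by 1.46 and 1.52 in the authors' deposited table (adjusted p = 4.79e-06 and 6.11e-05, DESeq2), while its parent SDAD1 fell by 0.44 and 0.49 (adjusted p = 9.65e-16 and 0.00166, DESeq2).

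TPM3P9, a copy of the tropomyosin gene TPM3, had normalized counts of 539, 566 and 671 in parental and 491, 493 and 492 in INTS1-AID libraries. All 3 INTS1-AID libraries were below the parental ones, but the difference did not pass the test (log2 change -0.26, limma adjusted p = 0.262). It rose by 0.84 at 4 h in the authors' deposited table (adjusted p = 3.12e-12, DESeq2), with a log2 change of 0.25 at 12 h (adjusted p = 0.122, DESeq2). The 12 h minus 4 h difference was -0.60 ± 0.18 (SE; Wald z test, adjusted p = 0.00766). TPM3 had log2 changes of -0.01 and 0.06 in the authors' deposited table (adjusted p = 0.827 and 0.594, DESeq2).

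By symbol, 76 members had a measured protein-coding parent. At 12 h both were called for 9 of 75 pairs in the authors' deposited table, 6 in the same direction and 3 in opposite directions. At 4 h both were called for 6 of 76 pairs, 4 in the same and 2 in opposite directions. GOLGA2P7 rose by 1.06 at 12 h in the authors' deposited table (adjusted p = 2.08e-05, DESeq2) while GOLGA2, a Golgi matrix gene, fell by 0.35 (adjusted p = 0.00123, DESeq2). Of the 50-base stretches of GOLGA2P7, 41.4% occur in other genes. GTF2IP1 fell by 0.73 and GTF2I, a transcription factor gene, by 0.84 at 12 h in the authors' deposited table (adjusted p = 0.0061 and 1.52e-23, DESeq2), and as given above most stretches of GTF2IP1 are shared.

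**Figure D4:**
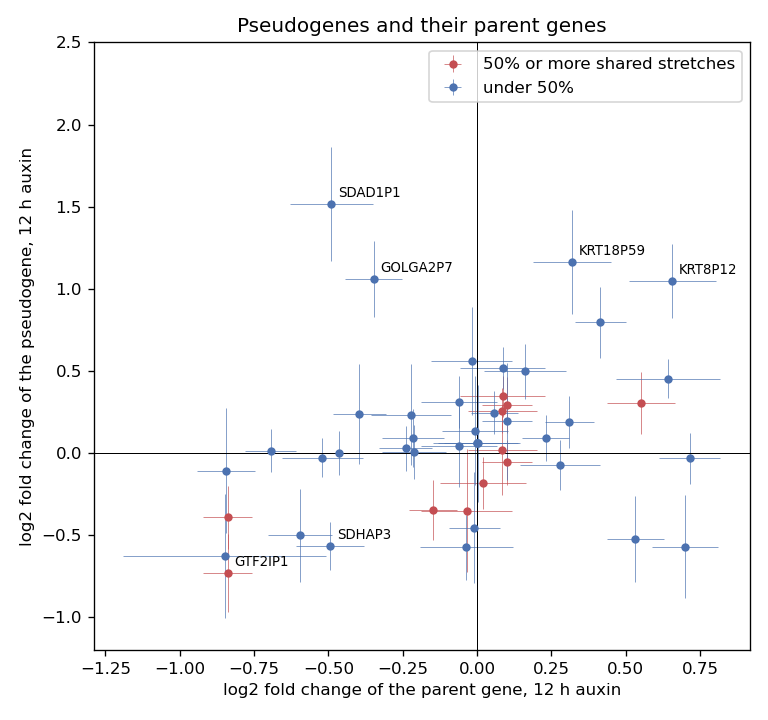
Log2 fold change at 12 h of members (vertical axis) against that of their parent genes (horizontal axis), from the authors' deposited table, for members with a mean count of at least 20. Bars are standard errors implied by the p-values. Red points share at least 50% of their 50-base stretches with another gene. SDAD1P1 and GOLGA2P7 lie above 0 while their parents lie below 0.

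The unitary members included the fall seen in each comparison of the merged table. GUCY1B2, a remnant of a subunit gene of soluble guanylate cyclase, had normalized counts of 81.7, 57.7 and 65.3 in parental and 70.3, 77.6 and 63.3 in INTS1-AID libraries, and the groups overlapped. In the authors' deposited table it fell by 0.96 at 4 h and 1.87 at 12 h (adjusted p = 0.0484 and 0.000806, DESeq2). Among unitary members with a mean count of at least 20, CDIPTOSP had the largest rise at 12 h (log2 change 2.32, adjusted p = 8.37e-09 by DESeq2), with 0.77 at 4 h (adjusted p = 0.166, DESeq2), in the authors' deposited table. WFDC21P, with a mean count of 4 at both times, rose by 3.14 at 12 h (adjusted p = 0.0135, DESeq2) and had 3.54 at 4 h (adjusted p = 0.0752, DESeq2) in the authors' deposited table. EGFEM1P rose by 1.19 at 4 h and SRP54-AS1 by 0.75 at 12 h by the authors' deposited table (adjusted p = 0.0238 and 0.0356, DESeq2). Neither was called at the other time, with log2 changes of 0.40 for EGFEM1P at 12 h and 0.10 for SRP54-AS1 at 4 h in the authors' deposited table. TMEM198B rose by 1.10 and 0.76 and AHSA2P, a relative of an HSP90 co-chaperone gene, by 0.67 and 0.41 in the authors' deposited table. AHSA2P overlaps USP34 on the other strand, which fell by 0.31 and 0.54 in the authors' deposited table. TMEM198B overlaps DNAJC14 on the other strand, which had log2 changes of -0.06 and 0.35 in the authors' deposited table. ATE1-AS1 rose by 1.57 at 4 h in the authors' deposited table (adjusted p = 0.0169, DESeq2). Its 12 h log2 change by the authors' deposited table was 0.80 and did not pass the threshold (adjusted p = 0.149, DESeq2). ATE1-AS1 overlaps ATE1 on the other strand. By the authors' deposited table, ATE1 had log2 changes of -0.27 (4 h) and -0.57 (12 h), each past the threshold. ZNF271P, the most abundant unitary member, rose by 0.17 at 4 h (adjusted p = 0.00097, DESeq2) and had a log2 change of -0.12 at 12 h (adjusted p = 0.493, DESeq2) in the authors' deposited table. At 12 h the authors' deposited table also held falls of AFG3L1P by 0.44 and LINC02210 by 0.65. AFG3L1P overlaps CENPBD1 on the other strand. By the authors' deposited table, CENPBD1 had log2 changes of 0.56 (4 h) and 0.72 (12 h), each past the threshold.

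Families of unprocessed members, grouped after their values were seen, gave the following counts. Copies within a family can share stretches, and reads of such copies may not be told apart. Of 5 FAM86 copies, relatives of the lysine methyltransferase gene EEF2KMT, 4 fell at 12 h by the authors' deposited table, FAM86B3P by 1.29, FAM86JP by 1.08, FAM86C2P by 0.47 and FAM86EP by 0.45. FAM86DP had a log2 change of -0.07 (adjusted p = 0.706, DESeq2), and EEF2KMT itself fell by 0.52 (adjusted p = 6.37e-05, DESeq2), in the authors' deposited table. FAM86EP had untreated normalized counts of 368, 319 and 291 in parental and 294, 277 and 287 in INTS1-AID libraries, which overlapped. It was the 1 member that rose at 4 h (0.45, adjusted p = 0.0205 by DESeq2) and fell at 12 h (adjusted p = 0.00556, DESeq2) in the authors' deposited table. Its 12 h minus 4 h difference was -0.90 ± 0.22 (SE; Wald z test, adjusted p = 0.000882). Of 5 STAG3L copies on chromosome 7, STAG3L1, STAG3L2 and STAG3L3 rose at 12 h by 1.15, 0.62 and 0.71 in the authors' deposited table. STAG3L1 overlaps TRIM73 on the same strand, which rose by 1.47 at 12 h in the authors' deposited table (adjusted p = 0.0174, DESeq2). STAG3L4 had a log2 change of 0.21 (adjusted p = 0.176, DESeq2) and STAG3L5P one of -0.15 (adjusted p = 0.377, DESeq2) in the authors' deposited table. STAG3L5P had fallen by 0.31 at 4 h in the authors' deposited table (adjusted p = 0.00507, DESeq2). Of copies of NSUN5, an RNA methyltransferase gene, NSUN5P1 and NSUN5P2 rose at 12 h by 0.52 and 0.34 in the authors' deposited table. Of the 50-base stretches of NSUN5P1 and NSUN5P2, 28.9% and 61.3% occur in other genes. Other families had no call at 4 h or 12 h in the authors' deposited table, namely CCT6P1 and CCT6P3, SMG1P3 and SMG1P5, and RPL23AP7, RPL23AP53 and RPL23AP82.

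Further unprocessed members were among the largest changes. AP000769.1 rose by 1.51 at 4 h and 1.32 at 12 h by the authors' deposited table (adjusted p = 0.00309 and 0.00163, DESeq2). Its untreated normalized counts were 5.38, 9.47 and 6.75 in parental and 18.2, 11.1 and 15.2 in INTS1-AID libraries, so the groups did not overlap before auxin, without passing the test (limma adjusted p = 0.214). TMEM231P1 rose by 1.52 at 4 h and had 0.02 at 12 h, by the authors' deposited table (adjusted p = 0.0087 and 0.981, DESeq2), and its parent TMEM231, a transition zone gene of the primary cilium, fell by 0.61 and 0.46 (adjusted p = 0.00326 and 0.02, DESeq2). Of the 50-base stretches of TMEM231P1, 48.3% occur in other genes. Falls at 4 h by the authors' deposited table included H2BP2 by 1.12, of whose stretches 85.1% occur elsewhere, and ZNF767P by 0.42 (adjusted p = 0.036 and 9.16e-05, DESeq2). At 12 h, FAHD2CP fell by 0.76, ZNF815P by 0.61, RP9P by 0.57 and ADCY10P1 by 0.57 in the authors' deposited table. None of these 4 was called at 4 h, but none passed the test of the difference between 12 h and 4 h either. RP9P was already lower in untreated INTS1-AID than in parental cells by the authors' test (adjusted p = 0.0449, DESeq2), but not by limma. Of the 50-base stretches of RP9P, 25% occur in other genes.

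EMC3-AS1 had normalized counts of 218, 221 and 244 in parental and 227, 215 and 182 in INTS1-AID libraries, which overlapped. It fell by 0.71 at 4 h in the authors' deposited table (adjusted p = 0.000574, DESeq2) and had a log2 change of 0.01 at 12 h (adjusted p = 0.955, DESeq2). The difference between the times was 0.73 ± 0.24 (SE; Wald z test, adjusted p = 0.0222). In all, 4 of 217 members differed between 12 h and 4 h, 2 upward and 2 downward, against 14.9% of all 14460 genes (6.33% upward and 8.55% downward). Of the members to be named whatever their values, GBAP1, GUSBP1 and WASH5P were measured, and none of the 3 passed the test at 4 h, at 12 h or between the untreated lines.

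**Figure D5:**
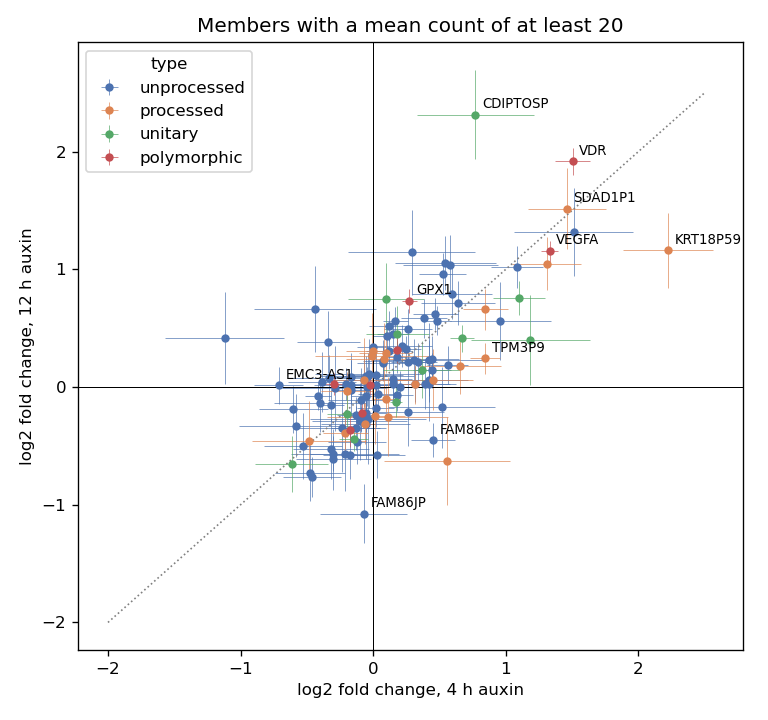
Log2 fold change at 12 h (vertical axis) against 4 h (horizontal axis) of the 128 members with a mean count of at least 20 at both times, from the authors' deposited table. Bars are standard errors implied by the p-values, and the dotted line marks equal changes. FAM86EP lies to the right of 0 at 4 h and below 0 at 12 h.

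TT-seq columns, a measure of newly made RNA, were deposited for 4 h in series that their headers name for INTS1 and INTS8. Their libraries are not analysed here. In the authors' deposited table, 19 of 177 members were higher and 5 lower for INTS1, against 24.1% of all genes called (13.3% higher and 10.7% lower). For INTS8 the authors' deposited table held 10 higher and 1 lower of 168 members, against 9.43% of all genes called (6.56% higher and 2.87% lower). The direction of the INTS8 column was taken from its correlation with the INTS1 column across genes (Pearson's r = 0.88, n = 8414). The log2 expression column matched the denominator for INTS1 (median error 0.00131) but the numerator for INTS8 (0.00102, against 0.11 for the denominator). Its header does not name a group. Were it the untreated group in both, the INTS8 fold change would be the inverse, with 1 member higher and 10 lower. VDR had TT-seq log2 changes of 1.09 and 0.84, VEGFA of 1.25 and 0.71, KRT18P59 of 1.38 and 1.34 and SDAD1P1 of 1.32 and 1.24 for INTS1 and INTS8 in the authors' deposited table, and each passed the threshold in both. GUCY1B2 fell by 1.96 and 1.09 in the authors' deposited table (adjusted p = 0.00025 and 0.0277, DESeq2). Other rises in TT-seq by the authors' deposited table were those of AC092656.1 (log2 change 1.34 for INTS1 and 1.44 for INTS8), TMEM198B (0.80 and 0.60) and AHSA2P (0.86 and 0.53), each past the threshold in both. For INTS1, AC098934.1 rose by 1.13, AC026412.1 by 0.90 and CRYM-AS1 by 0.78 in the authors' deposited table, and none of the 3 passed the threshold for INTS8. For INTS8, AMZ2P1 rose by 0.89 and AL133216.2 by 0.71 in the authors' deposited table, and neither passed it for INTS1. The other falls for INTS1 were HMGB3P22 by 1.12, ADCY10P1 by 1.06, AC139795.1 by 0.77 and RP9P by 0.67 in the authors' deposited table. The difference between INTS1 and INTS8 was not tested. KRT8P12, higher in RNA-seq, had TT-seq log2 changes of 0.29 and 0.38 in the authors' deposited table (adjusted p = 0.496 and 0.478, DESeq2). TPM3P9 had 0.25 and 0.15 there, in the authors' deposited table (adjusted p = 0.29 and 0.702, DESeq2).

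RefSeq promoter windows, from 250 bases before to 50 after a start on GRCh38.p14, were found for 18 members with 30 windows. The cAMP response element TGACGTCA, searched on both strands, was in 1 of the 30 windows (EMC3-AS1), against 1.85% of all 35116 windows available. These background windows were not limited to the genes measured here. The AP-1 motif TGANTCA was in 1 (SVIL-AS1), against 7.71%, the TATA box letters TATAAA in 2 (AQP4 and LDHB), against 11.5%, and the ATF4 motif TGATGNAA in 0, against 3.62%.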

How the data were processed

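The members and gene lists were chosen with earlier results of these data known. Per the labels, total RNA was depleted of ribosomal RNA and made into stranded dUTP libraries. STAR 2.7.3a, DESeq2, hg38 and dm6 are named in the submitters' processing notes. Neither the way reads were counted, with or without strand, nor the annotation is stated in these sources. The deposited signal values are normalized counts per gene for the 6 untreated libraries, and all were whole reads within 0.001 after division by the smallest step of each library. The deposited log2 values are the authors' fold changes, the deposited p-values their tests, the deposited ratio columns their linear fold changes, and the deposited score columns their mean counts and calls. A deposited −log10 column holds the authors' adjusted p-values on that scale, per the file headers. Columns headed for TT-seq in the table of the cell lines hold the untreated comparison, since they correlate with the fold changes of its own libraries at r = 1.00 across 8675 genes. For untreated cells the planned test, run in R 4.3.3, was limma 3.58.1 with trend and robust options on log2(normalized count + 1), for genes with a mean of at least 10, at a Benjamini-Hochberg FDR of 0.05. For 4 h, 12 h and TT-seq, a call means that the authors' adjusted p was under 0.05. A deposited column of log2 expression gave the 4 h direction, since placing 2 libraries in the denominator matched it with a median log2 error of 0.000476 (5431 genes), and the error of the next best placing was 0.0133. The difference between times was tested with a Wald z test from log2 changes and the standard errors their p-values imply; 12 genes at 4 h and 8 at 12 h with p listed as 0 entered at z = 38. Both tests were tested on simulated data. Named members were, per comparison, the 8 largest rises and 8 largest falls past the threshold with a mean count of at least 20, each unitary or polymorphic member called, the 10 with the highest counts, and 11 fixed names; further members are named in family or parent pairs and were chosen after their values were seen. Alternatives on recovered reads used DESeq2 1.42.0 and edgeR 4.0.16. All 220 members had identifiers in GENCODE v29.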

Additional observations from a re-analysis of the deposited data

Results flagged for a closer look

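The changes of 4 members at 12 h differed from those at 4 h by a Wald z test on the authors' deposited table. The 12 h minus 4 h difference in log2 change was -0.90 for FAM86EP, -0.60 for TPM3P9, 0.46 for GPX1 and 0.73 for EMC3-AS1. The 2 times come from separate series of libraries, so a difference between the series and one between the times cannot be told apart. These differences also rest on the direction taken for the 12 h column, which is not settled.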

How the results depend on the processing

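For the untreated lines the 2 members called became 10 after removal of GC trends, 7 with DESeq2, and 0 with library totals or at an FDR of 0.01. Over all genes, the 295 called became 1308 after removal of GC trends, 824 with DESeq2 and 226 with library totals. Leaving out 1 library gave 0 to 22 members. With the replicate number as a block the count was 0 members, against 6 of all genes. Same-numbered libraries did not deviate together (correlations of -0.07, 0.0040 and -0.11). With 3 libraries per group, these correlations cannot settle whether the numbers pair the samples. Of alternatives chosen after seeing the data, leaving out chromosome 5 gave 0 and the authors' deposited adjusted p gave 6. The count was 2 with edgeR, without a filter, with a minimum mean of 50, with a pseudocount of 10 or 0.1, and without members that have a measured parent or the polymorphic type. With a log2 change of at least 1 as well, the counts were 16 at 4 h, 20 at 12 h, 12 for INTS1 TT-seq and 4 for INTS8 TT-seq. An adjusted p under 0.01 gave 13 for INTS1 TT-seq and 7 for INTS8 TT-seq, and a mean count of at least 50 gave 7 for the latter. The shares of all genes under these TT-seq settings were not computed. Leaving out members that share at least 10% of their stretches gave 21 of 99 at 4 h (21.2%) and 25 of 98 at 12 h (25.5%). Of 55 calls named as the largest rises or falls of the auxin, TT-seq and time difference comparisons, 15 were lost at an adjusted p under 0.01 and 40 were not. Calls named for other reasons were not in this count. Some of these would also be lost, such as AMD1 at 12 h (adjusted p = 0.0141, DESeq2) and EGFEM1P at 4 h (adjusted p = 0.0238, DESeq2). The cause of these shifts was not tested. Low counts limit 51 of 220 members, which had a mean under 10 and were not tested between the lines.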
